A study of Mus musculus with 16 samples.

Results

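The unoperated control mice of this series were compared between 2 ages, postnatal day 35 (P35) and 10 weeks (10W), to follow how gene expression in the right neocortex differed between adolescence and adulthood without injury. The members are the pools titled NC P35 and NC 10W, each measured on 1 Cy3 and 1 Cy5 array, which makes 4 of the 16 arrays of the series. Both pools came from C57BL/6J mice that had received no surgery and no other treatment, and the tissue was the right neocortex rostral to bregma. The animals were described as male, 4 to a group of the study, and their RNA was pooled before hybridization. How many animals entered the pool of each age is not given in the sources used here. Each age is thus 1 sample, the 2 dyes are repeat measurements of the same RNA, and no test between the ages was possible. All Cy3 arrays lay on 1 slide and all Cy5 arrays on the other, so that dye and slide cannot be told apart. Where other pools are set beside these, they are the unoperated pools NC P7 and NC P14 (aged 7 and 14 days) and pools of mice in which the left sensorimotor cortex had been aspirated. NBI 4W mice were operated on as pups and sampled at 35 days of age, ABI 4W mice were operated on as adults and sampled at 15 weeks, both 4 weeks after surgery, and ABI 1W mice were sampled at 11 weeks of age, 1 week after surgery.

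Adolescent rodent cortex goes on adding myelin, the lipid-rich sheath that oligodendrocytes wrap around axons. New oligodendrocytes arise from dividing precursor cells and pass through a brief premyelinating stage, marked by genes such as Enpp6 and Gpr17, before they express the structural myelin genes at full strength. Cortical neurons are no longer being generated at these ages, and genes of neurite growth are mostly being turned down, while receptors, ion channels and perineuronal nets approach their adult composition.

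A level is given here as the log2 spot intensity minus the 75th percentile of its array, so that 0 is the 75th percentile, and a difference is the log2 level at 10W minus that at P35 within 1 dye. A gene was called higher or lower when both dyes differed by more than 1.5-fold (0.585 on the log2 scale) in the same direction. Only genes whose probe was well above the local background on both arrays of at least 1 pool were compared. On an array where a probe was not well above background, its signal was held at no less than the lowest well-above-background signal of that array. The higher of the 2 values was used, and the difference is then a bound. On the 4 arrays, 65.6% to 71.7% of the spots passed this background limit.

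The control P35 pool went against its description as male. The probe A_52_P113537 for Xist, the RNA that coats the inactive X chromosome in female cells, was well above background on both P35 arrays, with levels of −1.63 (Cy3) and −1.79 (Cy5). On the 14 other arrays of the series it was not well above background, with levels between −10.64 and −9.93. With this probe Xist was therefore measured in 1 pool out of 8, and there with both dyes. A second Xist probe, A_52_P300376, had levels of −3.68 and −3.17 at P35 and of −4.64 and −5.73 at 10W, where the Cy3 array alone was well above background, as was 1 array of ABI 4W (−4.78). The Y-linked genes were present in both ages. Eif2s3y, a translation factor gene on the Y chromosome, had levels of 1.12 and 1.25 at P35, the lowest of the 16 arrays, and of 1.57 and 1.79 at 10W. Uty, a Y-linked demethylase gene, had levels of −3.70 and −3.23 at P35 and of −3.00 and −2.75 at 10W, and Ddx3y, a Y-linked helicase gene, differed by 0.29 on average. None of these 3 genes was called. Genes on the X chromosome made up 3.46% of the 16084 genes compared, 2.69% of those called higher and 5.93% of those called lower (7 of 118, Xist included). The part that the animals' sex had in the differences below was not tested, and in these pools sex and age cannot be told apart. Values against NBI 4W, the other pool aged 35 days, are therefore given beside the main ones, although that pool had been operated on.

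**Figure D1:**
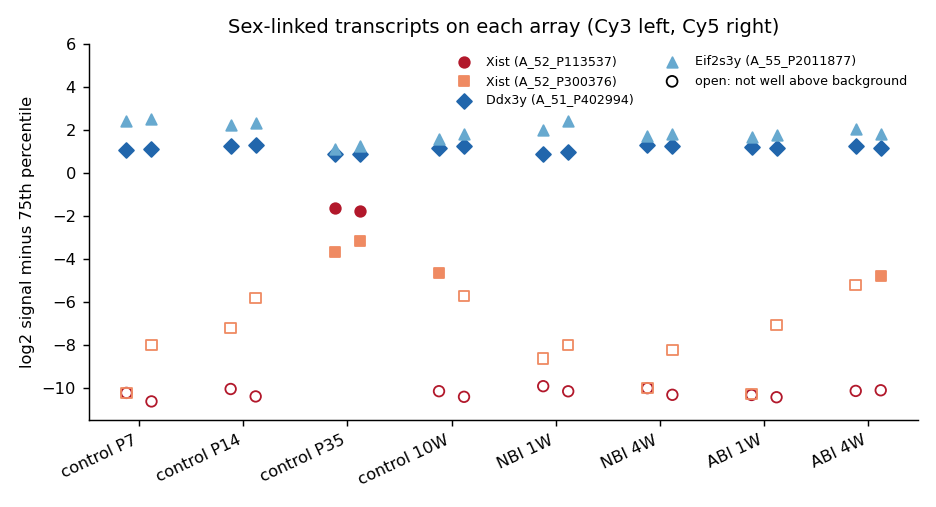
Levels of 2 Xist probes and of the Y-linked genes Ddx3y and Eif2s3y on all 16 arrays (y axis, log2 signal minus the array's 75th percentile), by pool (x axis), with Cy3 to the left and Cy5 to the right of each position. Open symbols were not well above background. The Xist probe A_52_P113537 is filled only for control P35, at −1.63 and −1.79.

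The pools were checked against neocortical markers. Slc17a7, the vesicular glutamate transporter of cortical excitatory neurons, had levels of 2.63 and 2.78 at P35 and of 2.83 and 2.42 at 10W. None of the 27 genes of the excitatory neuron and layer list was called, and their differences ran from −0.37 to 0.18 with a median of 0.05. Gapdh, a glycolytic enzyme used as a loading control, differed by 0.01 with Cy3 and by −0.18 with Cy5.

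Of the 16084 genes compared, 891 were called higher at 10W (5.54%) and 118 lower (0.734%), while for 45 the dyes disagreed, 1 past the limit upward and the other downward. The median difference over all genes was 0.02 with Cy3 and 0.03 with Cy5, and the within-dye differences correlated across genes with r = 0.643, a description across genes of the same 2 pools and not of replicates. The excess of higher genes lay in the dimmest probes. When the genes were ordered by their mean level, the dimmest 4021 genes held 850 of the higher genes (95.4%), and their median difference was 0.38 with Cy3 and 0.21 with Cy5. Among the brighter 12063 genes 41 were higher (0.34%) and 63 lower (0.522%), and in none did the dyes disagree in this way. The split of the calls also moved with the scaling of the arrays. Of all called genes, 88.3% were higher with the 75th percentile, 49.5% when the arrays were centered on their medians (438 higher and 447 lower), 46.1% after quantile normalization (297 and 347) and 78.2% with no scaling (667 and 186). Centering on the array median shifted the median difference of all genes from 0.02 to −0.27, and leaving out the scaling shifted it to −0.09, so that the differences below are relative to the 75th percentile of each array.

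**Figure D2:**
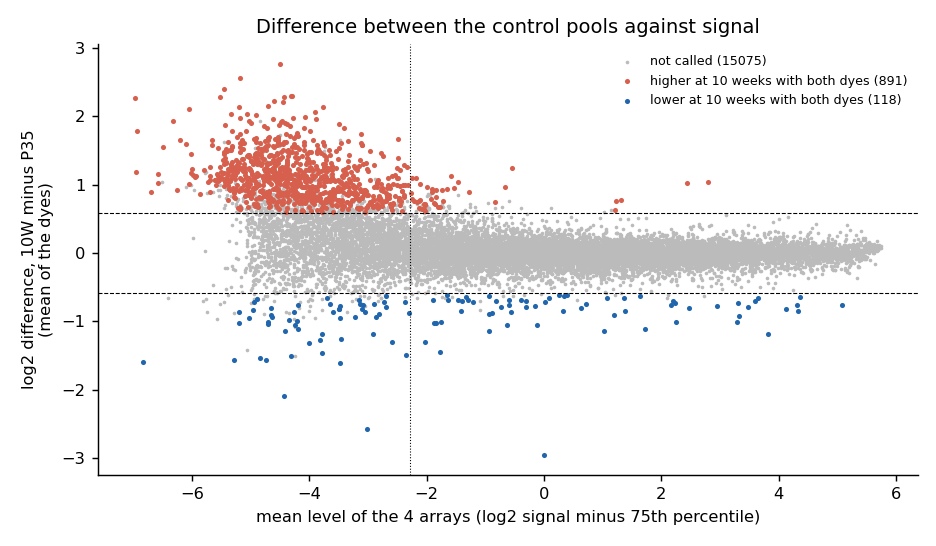
Mean log2 difference of the 2 dyes, 10W minus P35 (y axis), against the mean level of the 4 arrays (x axis, log2 signal minus the 75th percentile) for the 16084 genes compared. Red points were called higher (891), blue points lower (118) and gray points neither. Dashed lines mark 1.5-fold and the dotted line bounds the dimmest 4021 genes, which hold 850 of the 891 higher genes.

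Chemosensory receptor genes, whose products detect odors, pheromones and tastants in sensory epithelia, made up much of the higher group. Of 425 olfactory, vomeronasal and taste receptor genes compared, 222 were called higher and 2 lower (Olfr183 and Olfr1082), with a median difference of 0.85, and they formed 24.9% of all higher genes. Beside this, 5.54% of all genes compared were called higher, and 850 of the dimmest 4021 were. Split by family, 178 of 335 olfactory, 41 of 79 vomeronasal and 3 of 11 taste receptor genes were called higher. Under the other scalings and background corrections 90 to 227 of the 425 were called higher and 0 to 7 lower. The level over all 1360 genes of these families moved from array to array in the whole series. Its median was −7.44 (Cy3) and −6.66 (Cy5) at P35, −5.54 and −6.20 at 10W, and −5.68 and −6.43 in ABI 4W. At P35 23.5% (Cy3) and 31.2% (Cy5) of these probes were well above background, and at 10W 36.2% and 36.0%, so that most signals behind these medians did not pass that limit. The 425 genes compared are those that passed it in at least 1 pool. For a gene that passed at 10W alone, such as Olfr181, this filter favors a higher call. How many of the 222 did so is not given here, and their share and median difference are limited by this. The 10W and ABI 4W arrays, which lay in column 4 of their slides, had the highest medians on both slides, and the P35 arrays lay in column 3. Between ABI 4W and NBI 4W 212 of the receptor genes were called higher, beside 7.1% of all genes compared there, and between ABI 1W and NBI 4W 2, beside 6.35%. How many receptor genes these comparisons held is not given here, so that 212 and 2 cannot be read as shares. Of the receptor probes, 36.8% (Cy3) and 31.1% (Cy5) were well above background in ABI 4W. In NBI 4W 25.4% and 21.5% were, and in ABI 1W 17.4% and 24.9%. The part of the slide position in these differences was not tested.

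Oligodendrocyte genes formed one large group of lower genes. Of 29 compared genes of mature oligodendrocytes and myelin, 10 were called lower at 10W and 1 higher, 25 had a mean difference below 0, and the median was −0.39, against 0.02 over all genes. Among the lower members were Mobp, Ugt8a, Cldn11, Cnp, Tspan2, Mal, Mag, Fa2h and Opalin. Fewer cells of a type and less RNA per cell cannot be told apart in such bulk samples, here or in the results that follow. Mobp, which encodes a basic protein of the compact myelin sheath, had levels of 4.44 (Cy3) and 4.39 (Cy5) at P35 and of 3.22 and 3.25 at 10W, a 2.26-fold lower signal on average. A further 2 Mobp probes were called lower as well, with mean differences of −0.92 and −0.66. Mag, an adhesion protein of the inner myelin membrane, had levels of 4.78 and 4.61 at P35 and of 3.97 and 3.89 at 10W. Cnp, an enzyme of the cytoplasmic myelin channels, went from 4.45 and 4.61 to 3.75 and 3.67. For all 3 genes both 10W arrays lay below both P35 arrays, by more than the dyes differed.

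The lipid-synthesis members of the myelin list were lower too. Ugt8a, which makes the galactosylceramide of myelin, had levels of 1.70 and 1.60 at P35 and of 0.76 and 0.71 at 10W. Fa2h, which hydroxylates the fatty acids of myelin lipids, fell from 2.52 and 2.60 to 1.75 and 1.95. Gal3st1, which turns galactosylceramide into sulfatide and was not on the list, was called lower by −0.62 and −0.60 and was chosen after its values were seen. Cldn11, the tight junction protein of myelin, fell from 4.76 with both dyes to 3.95 and 3.87. Mal, a proteolipid of myelin sorting, fell from 5.55 and 5.39 to 4.72 and 4.69, and Tspan2, a tetraspanin, from 3.33 and 3.37 to 2.50 and 2.63. Opalin, a membrane protein of mature oligodendrocytes, was close to the limit, with 0.66 and 0.65 at P35 and 0.03 and 0.01 at 10W.

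Other myelin genes were not called. Mbp, the main basic protein of myelin, had levels of 3.40 and 3.60 at P35 and of 3.37 and 3.71 at 10W. Mog, on the outer sheath surface, differed by −0.46 and −0.48, and the transcription factors Olig1, Olig2 and Sox10, which specify the lineage, by −0.49, −0.39 and −0.30 on average. Ermn, a cytoskeletal protein of myelinating cells, differed by 0.44 and 0.56. The one member called higher, Myrf, the transcription factor that switches on myelin genes, was measured with a dim probe, at −5.08 and −5.10 for P35 and −3.88 and −4.43 for 10W. This call was lost when the arrays were centered on their medians, quantile normalized or left unscaled, and with the normexp background correction.

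Of 17 genes of precursor and premyelinating cells, 3 were called lower and 1 higher, with a median of −0.27. Enpp6, a choline phosphodiesterase that marks newly forming oligodendrocytes, had levels of −2.02 and −1.85 at P35 and of −3.25 and −3.23 at 10W, a 2.48-fold lower signal. A second Enpp6 probe differed by −0.30 with Cy3 and −0.86 with Cy5 and was not called. Gpr17, a receptor of premyelinating cells, fell from 3.93 and 3.83 to 3.05 and 3.13, and Neu4, a sialidase, from −3.14 and −3.05 to −3.74 and −4.00. Tmem163, a zinc transporter, was the higher member, at −2.47 and −2.32 for P35 and −1.79 and −1.72 for 10W. Precursor genes proper differed less, with −0.29 on average for Pdgfra, the growth factor receptor that defines them, and −0.06 for Cspg4, their surface proteoglycan. The non-coding RNA gene 9630013A20Rik, which is expressed in newly formed oligodendrocytes and was not on a list, fell from −0.98 and −1.13 to −2.53 and −2.49, a 2.74-fold lower signal.

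**Figure D3:**
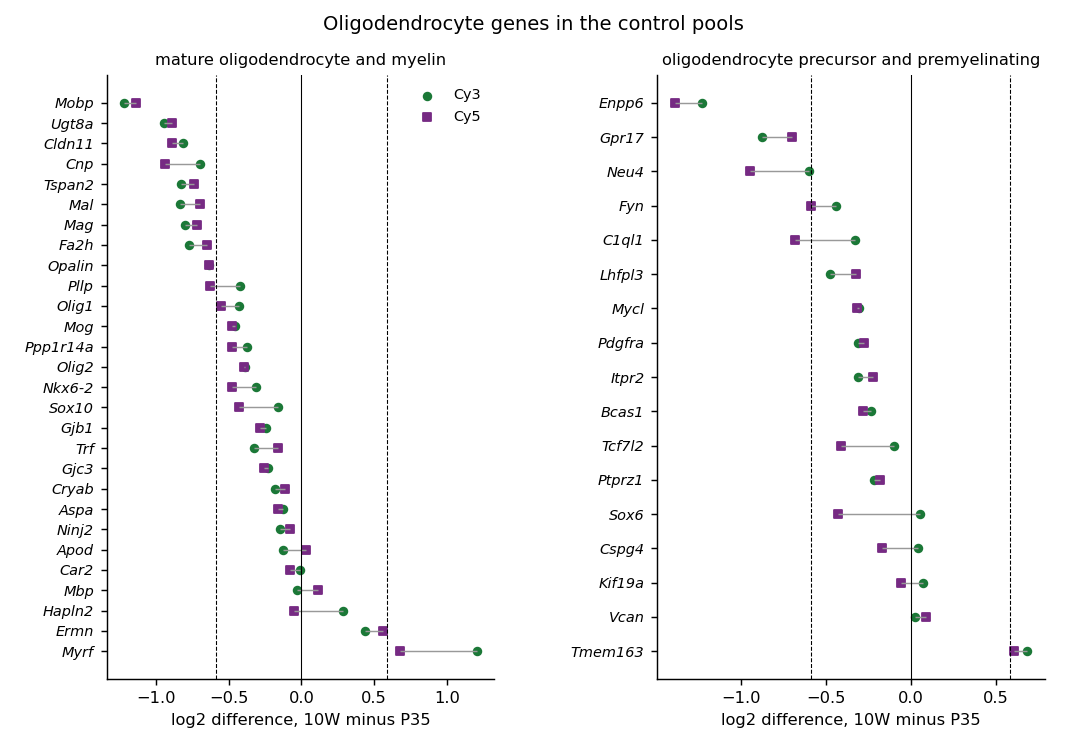
Log2 difference, 10W minus P35 (x axis), with Cy3 (circles) and Cy5 (squares) for 28 of the 29 compared genes of mature oligodendrocytes and myelin (left) and the 17 of precursor and premyelinating cells (right). Dashed lines mark 1.5-fold. On the left 9 genes lie below −0.585 with both dyes and 1, Myrf, above 0.585, and on the right 3 lie below and 1, Tmem163, above.

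The promoters of 5 of the lower oligodendrocyte genes are shown to give the sequence context of the group. Each run holds the 250 bases before the annotated start, 5′ to 3′ on the gene's own strand, from RefSeq on GRCm38.p6. Capitals mark the letters ACAAAG or ACAATG, a core bound by SOX factors such as SOX10, and CTGGCAC or CTGGTAC, letters like those bound by MYRF, searched on both strands. The regions are chr8:46986637-46986886 (plus strand) for Enpp6, chr14:84476425-84476674 (minus) for 9630013A20Rik, chr9:120149492-120149741 (plus) for Mobp, chr7:30914864-30915113 (minus, the first of 3 annotated starts) for Mag and chr11:100574689-100574938 (plus) for Cnp.
Enpp6: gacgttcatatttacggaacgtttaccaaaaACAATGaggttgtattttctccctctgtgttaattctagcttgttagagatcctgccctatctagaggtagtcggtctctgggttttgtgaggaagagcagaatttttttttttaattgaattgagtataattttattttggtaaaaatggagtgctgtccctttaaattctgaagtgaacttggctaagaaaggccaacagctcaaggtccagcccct
9630013A20Rik: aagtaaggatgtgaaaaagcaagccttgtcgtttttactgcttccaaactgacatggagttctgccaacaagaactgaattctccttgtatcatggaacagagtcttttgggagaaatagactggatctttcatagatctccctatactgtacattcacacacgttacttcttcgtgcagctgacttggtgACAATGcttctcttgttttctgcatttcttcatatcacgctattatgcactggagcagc
Mobp: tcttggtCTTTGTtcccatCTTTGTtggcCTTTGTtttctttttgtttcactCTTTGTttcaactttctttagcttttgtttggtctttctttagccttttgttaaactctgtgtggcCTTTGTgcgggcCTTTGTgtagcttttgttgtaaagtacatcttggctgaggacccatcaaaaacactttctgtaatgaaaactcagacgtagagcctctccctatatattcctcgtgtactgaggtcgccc
Mag: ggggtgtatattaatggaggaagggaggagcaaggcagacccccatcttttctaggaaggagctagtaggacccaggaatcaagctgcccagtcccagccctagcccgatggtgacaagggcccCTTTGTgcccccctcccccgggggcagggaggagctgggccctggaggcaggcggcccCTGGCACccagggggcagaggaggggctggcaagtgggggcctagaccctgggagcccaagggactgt
Cnp: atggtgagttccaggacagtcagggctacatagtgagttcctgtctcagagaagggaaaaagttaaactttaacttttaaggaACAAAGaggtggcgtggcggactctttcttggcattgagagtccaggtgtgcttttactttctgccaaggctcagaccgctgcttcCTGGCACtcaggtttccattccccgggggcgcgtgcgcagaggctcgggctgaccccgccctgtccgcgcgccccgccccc
The Mobp run held 6 SOX-type matches, all on the opposite strand, and the others 1 each. Mag and Cnp also held 1 MYRF-type match each. The matches were counted over 13 oligodendrocyte genes called lower, the 10 of the myelin list, Enpp6, Neu4 and 9630013A20Rik, but not Gpr17. Of these 13 genes, 11 had a promoter entry, 7 of which held a SOX-type match and 2 a MYRF-type match. Of all 27025 genes with such a sequence, 28.2% held the SOX-type and 6.79% the MYRF-type letters in at least 1 promoter. These matches describe the letters alone.

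The same oligodendrocyte genes were set beside the other pools. In the unoperated pools Mobp had climbed from −0.62 and −0.55 at P7 to 5.01 and 4.90 at P14, and its levels at P35 and 10W were each below the one before. Enpp6 was likewise highest at P14, with −0.78 and −0.79. From P14 to P35, 3.58% of all genes were called higher and 4.29% lower, and the median difference was 0.28 for the myelin list and −0.53 for the precursor and premyelinating list. Against NBI 4W in place of the P35 pool, 6.64% of all genes were called higher and 0.591% lower. Both comparisons share the 10W arrays, so that their calls are not independent. Of the 891 genes called higher against P35, 850 of them among the dimmest 4021, 653 were called higher against NBI 4W too and 1 lower. Of the 118 genes called lower against P35, 107 were compared with NBI 4W, of which 22 were called lower and 8 higher. Among the brighter genes, 24 of the 41 higher ones were called higher again. Of the 63 lower ones, 11 were called lower again and 5 higher. Of the myelin list, 1 of the 29 genes was called lower (Mobp, by −0.77), 1 higher (Myrf, by 1.22), and the median was −0.10. Enpp6, Neu4 and 9630013A20Rik were still called lower against NBI 4W, by −0.88, −0.73 and −1.31. Enpp6 and Neu4 were the 2 of 17 precursor and premyelinating genes called lower there. None was called higher, Gpr17 and Tmem163 were not called, and the list's median was −0.25. Between ABI 4W and NBI 4W, which share no array with the control pools, the myelin list had a median of 0.05, with 1 gene higher and none lower, whereas Enpp6 (−1.07) and 9630013A20Rik (−1.48) were called lower. Of the 17 precursor and premyelinating genes, 2 were called lower there and none higher, with a median of −0.30. Gpr17 and Neu4 were not called.

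Genes of immature neurons were lower in part. Of 22 compared, 4 were called lower and none higher, with a median of −0.17. Marcksl1, an actin-regulating protein of growing neurites, had levels of 2.69 and 2.83 at P35 and of 1.77 and 1.73 at 10W, a 2.02-fold lower signal. Cd24a, a surface protein of young neurons, fell from −0.47 and −0.41 to −1.30 and −1.35, Nnat, a proteolipid of the developing brain, from 2.56 and 2.52 to 1.94 and 1.63, and Igfbpl1 from −2.81 and −2.87 to −4.17 and −4.02. The general neurite genes differed less, with −0.15 for Dcx, −0.08 for Tubb3 and −0.12 for Gap43 on average. Against NBI 4W, Marcksl1 and Cd24a were called lower, by −0.77 and −0.79, and Nnat (−0.03) and Igfbpl1 (−0.51) were not.

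Cell cycle genes were close to the detection limit. Of 40 listed genes 32 were compared, of which 4 were called lower and 1 higher, with a median of −0.18. Pbk, a mitotic kinase, had levels of −4.04 and −3.89 at P35 and of −6.24 and −4.81 at 10W, where 1 of 2 arrays was well above background. Ube2c, which marks cyclins for destruction, fell from −2.47 and −2.58 to −3.09 and −3.44, and Nuf2, a kinetochore protein, from −3.10 and −3.09 to −4.01 and −3.81. Cdk1, the kinase that drives mitosis, was called lower with its chosen probe, which was not well above background at 10W, but a second probe was called higher by 0.78 and 0.74, so that no direction is given for it. Foxm1, a transcription factor of the cycle, was called higher by 0.79 and 0.71. Mki67, the standard marker of dividing cells, had levels of −1.86 with both dyes at P35 and of −2.42 and −2.44 at 10W, just inside the limit. With the normexp background correction no gene of this list was called lower. Against NBI 4W 2 of 31 were called lower (Pbk and Nuf2) and 1 higher (Foxm1), with a median of −0.10.

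Markers of regions beside the neocortex made up another large group of lower genes. Of 20 genes of striatal medium spiny neurons, which lie below the frontal neocortex, 10 were called lower and none higher, with a median of −0.66, the lowest of the 36 lists. Drd1, a dopamine receptor of these neurons, had levels of 1.05 and 1.00 at P35 and of 0.23 and 0.22 at 10W. Rgs9, which ends dopamine receptor signaling, fell from 3.99 and 3.91 to 3.22 and 3.28, Pde10a, a striatal phosphodiesterase, from 3.60 and 3.76 to 2.92 and 2.97, and Ecel1, a peptidase, from 1.56 and 1.64 to 0.49 and 0.42. The lower members also included Ido1, Gng7, Syndig1l, Actn2 and Lrrc10b. Drd2, the dopamine receptor of the other striatal output pathway, differed by 0.19 and −0.16. Drd1 stood at 0.17 to 0.23 on the arrays of 10W and NBI 4W and at 1.00 to 1.05 on those of P35 and ABI 4W. Thus 2 pools were high and 2 low, with a younger and an older pool on each side. The part of age in this was not tested, and 2 of the pools had been operated on. Against NBI 4W no striatal gene was called lower, 2 were called higher, and the median was −0.02.

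Of 23 compared genes of the hypothalamus and basal forebrain, 6 were called lower and 1 higher, with a median of −0.37. Oxt, the oxytocin precursor, had levels of 1.57 and 1.39 at P35 and of −1.33 and −1.62 at 10W, a 7.77-fold lower signal and the lowest difference of any gene that was above background on all 4 arrays. Avp, the vasopressin precursor, fell from −1.65 and −1.80 to −4.12 and −4.48 (5.94-fold). Both peptides are made by neurons of the hypothalamus. For each, the P35 arrays were the highest of all 16, with Oxt at −3.66 to −1.33 and Avp at −5.06 to −3.31 on the other 14. Lhx8 and Slc5a7, a transcription factor and the choline transporter of basal forebrain cholinergic neurons, were called lower too. Lhx8 fell from −1.43 and −1.29 to −2.44 and −2.32, and Slc5a7 differed by −0.78 and −0.60. Trh, a hypothalamic releasing hormone gene, fell from −0.13 and −0.12 to −0.93 and −1.06, and Magel2, an imprinted gene of the hypothalamus, differed by −0.70 on average and was called lower. Otp, a transcription factor of hypothalamic neurons, was called higher with a dim probe, by 1.39 and 0.69. Against NBI 4W no member was called lower and 6 were called higher, with a median of 0.32.

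**Figure D4:**
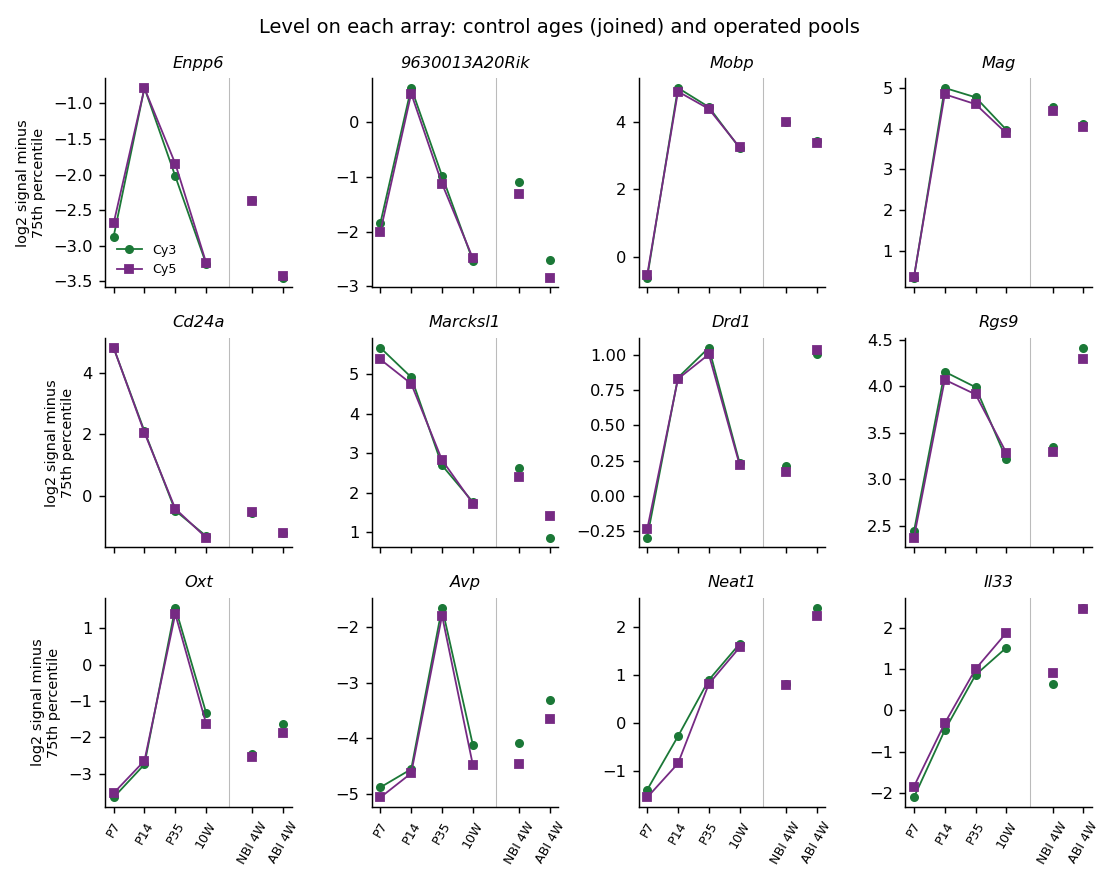
Levels (y axis, log2 signal minus the 75th percentile) of 12 genes on the Cy3 (circles) and Cy5 (squares) arrays of the control pools at 4 ages, joined by lines, and of NBI 4W and ABI 4W. Enpp6, 9630013A20Rik, Marcksl1 and Cd24a are lower in the older pool of both pairs. Oxt and Avp stand highest at P35, and Drd1 lies between 1.00 and 1.05 in P35 and ABI 4W and between 0.17 and 0.23 in 10W and NBI 4W.

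Other markers of neighboring tissue varied as well. The choroid plexus, which secretes cerebrospinal fluid, gave 2 lower genes (Clic6, a channel protein, by −0.69, and Steap1, a metalloreductase, at least 2.02-fold with no 10W array above background) and 1 higher (Slc4a5, a bicarbonate transporter, by 0.85 and 2.80) of 15 compared. Its dominant transcript Ttr, a thyroid hormone carrier, had levels of −1.05 and −1.12 at P35 and of −1.30 and −1.25 at 10W. Against NBI 4W 7 of the 15 were called lower and none higher, with a median of −0.56 and a difference of −5.23 for Ttr. All 15 genes of the leptomeninges, the membranes that cover the cortex, had a mean difference above 0, with a median of 0.27, but none was called, and the median turned to −0.02 when the arrays were centered on their medians. Against NBI 4W 2 of them were called higher (Slc47a1 and Bmp6), with a median of 0.43. Of 7 olfactory bulb genes, Tbx21, a transcription factor of the bulb's output neurons, was called higher by 1.25 and 0.83, and the list's median was 0.25. Against NBI 4W 5 of the 7 were called higher (Tbx21, Cdhr1, Eomes, Doc2g and Sp8), with a median of 1.33. No gene of the thalamus, hippocampus, pituitary or blood lists was called, with medians of −0.13 (8 genes), 0.04 (5), 0.46 (2) and 0.02 (9). Against NBI 4W 5 of the 9 blood genes (Alas2 and 4 hemoglobin genes) and 1 of the 5 hippocampal genes (Fibcd1) were called lower and 1 of the 2 pituitary genes (Gh) higher, with medians of −0.71, −0.27 and 0.75, and none of the 8 thalamic genes was called. How far the dissections differed between the pools was not tested, and in single pools it cannot be told apart from age.

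A comparison of older with younger operated mice, ABI 4W (15 weeks) minus NBI 4W (35 days), used other arrays throughout. Its older pool was older than 10W, and its pools also differed in the age at surgery. In it 1133 of 15963 genes were higher (7.1%) and 70 lower (0.439%). Of the 108 lower control genes compared in both, 9 were lower there too (8.33%, against 0.394% of all genes, and 14.5% of the 62 lower operated genes), 29 were higher (26.9%, against 6.67%) and 70 were not called. The 9 were Enpp6, 9630013A20Rik, Marcksl1, Cd24a, Pbk, Pimreg, Rnf122, Rab7b and Alox5, of which Rnf122, a ubiquitin ligase, Rab7b, an endosomal GTPase, Pimreg, a mitotic regulator, and Alox5, a lipoxygenase, are outside the lists and were chosen after their values were seen. Rnf122 fell from −2.45 and −2.22 to −3.46 and −3.57 in the controls and differed by −1.24 between the operated pools. Rab7b fell from −1.37 and −1.39 to −2.90 and −2.45 in the controls and differed by −0.62 between the operated pools. Between ABI 1W and NBI 4W, Marcksl1 differed by −0.68 and Cd24a by 0.27, and neither was called. None of the 17 precursor and premyelinating genes, Enpp6 included, was called there, and the list's median was −0.09. The striatal list went the other way, with 13 of 20 genes higher in ABI 4W and a median of 0.80, and so did the hypothalamic list, with 7 of 22 higher and a median of 0.37. Of the 15 choroid plexus genes 9 were higher in ABI 4W, with a median of 0.76 against −0.19 in the controls. Oxt and Avp were 0.75 and 0.80 higher in ABI 4W. Of the 774 higher control genes compared in both, 536 were higher there too (69.3%, and 51.0% of the 1050 higher operated genes), against 6.67% of all genes. Of these 774 genes, 733 were among the dimmest 4021, where 24.9% of all genes were higher in ABI 4W. Among the brighter genes, 23 of the 41 higher control genes were also higher in ABI 4W (1.06% of all brighter genes), and of the 63 lower ones 4 were lower (0.266%) and 18 higher. The 10W and ABI 4W arrays all lay in column 4 of their slides. Between ABI 1W and NBI 4W, 37 of 512 higher control genes were higher (7.23%, against 5.78% of all genes) and 15 lower (2.93%, against 0.80%). Of 107 lower control genes, 5 were lower there (4.67%, against 0.80%) and 14 higher (13.1%, against 5.78%). The parts of slide position and of time after surgery were not tested.

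**Figure D5:**
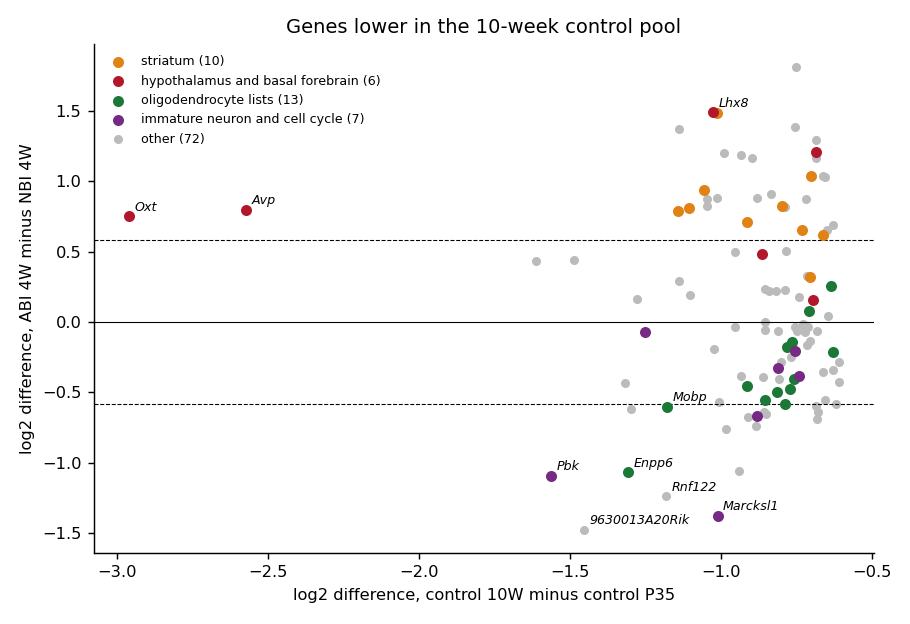
The 108 genes lower at 10W than at P35 that were also compared between the operated pools, with their control difference (x axis, log2, 10W minus P35) and their operated difference (y axis, log2, ABI 4W minus NBI 4W), as means of the dyes. Dashed lines mark 1.5-fold on the y axis. All 10 striatal genes lie above 0, and Enpp6, 9630013A20Rik, Rnf122, Marcksl1 and Pbk lie below −1.

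Genes higher at 10W with a clear signal were few. Neat1, the non-coding RNA that scaffolds nuclear paraspeckles, had levels of 0.89 and 0.81 at P35 and of 1.64 and 1.57 at 10W, a 1.69-fold higher signal. Il33, a nuclear cytokine of oligodendrocytes and astrocytes, rose from 0.86 and 1.00 to 1.52 and 1.88 (1.71-fold). Both were also called higher between ABI 4W and NBI 4W, by 1.51 and 1.70, and against NBI 4W in place of the P35 pool, by 0.81 and 0.93. In the controls they stood lower still at P14, with −0.28 and −0.84 for Neat1 and −0.48 and −0.31 for Il33. Neat1 and Il33 were chosen after their values were seen, as were the next 5 genes. Baiap2l2, a membrane-bending protein, rose from 2.28 and 2.27 to 3.10 and 3.54, but differed by 0.05 against NBI 4W and by −0.40 between the operated pools. Sgf29, a chromatin reader, rose from 1.97 and 1.87 to 2.96 and 2.94, whereas a second Sgf29 probe differed by 0.01 and −0.01. Septin1, a septin, rose from −1.26 and −1.05 to −0.29 and −0.07. Terc, the RNA of telomerase, rose from −2.44 and −2.51 to −1.41 and −1.61, and Tll1, a protease of the matrix, from 0.86 and 0.94 to 1.45 and 1.59. Plin4, a lipid droplet protein that glucocorticoids induce, rose from −2.22 and −2.40 to −1.38 and −1.41 and was the single called gene among 14 glucocorticoid-responsive ones.

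By size alone, the 15 higher genes with the largest differences were all among the dimmest 4021. Cyp2c66, a cytochrome P450, led with levels of −4.34 and −4.53 at P35 and of −2.22 and −2.90 at 10W, followed by Gm10389, Slc4a5, Gpr31b, Olfr661, Olfr611, Olfr91, Vmn1r80, Fbxw13, Olfr1509, Vmn1r42, C6, Olfr1280, Olfr139 and Cmah. Of these 15 genes 8 code for chemosensory receptors. The 5 largest bounds were Trim61 (at least 4.84-fold), Mov10l1 (4.32), Cd8a (5.91), Sirpb1b (3.80) and Olfr181 (3.78), with no P35 array above background. In the other direction the largest bounds were Retnla (at least 4.27-fold lower), Olfr1082 (3.03), Olfr183 (2.97), Steap1 (2.02) and Gtf2a1l (1.94), with no 10W array above background. The 15 lower genes with the largest differences were Oxt, Avp, Syna, Arhgap36, 9630013A20Rik, Enpp6, Rab7b, Xlr4b, Igfbpl1, Rnf122, Dgkk, Mobp, Ecel1, Igsf1 and Syndig1l. Syna, a placental fusion protein of retroviral origin, fell from −2.23 and −3.12 to −3.74 and −4.83. Arhgap36, which activates hedgehog signaling, fell from −1.64 and −1.58 to −3.23 and −2.97 but was 1.32 higher at 10W than in NBI 4W. Igsf1, a pituitary and hypothalamic membrane protein, fell from −0.39 and −0.35 to −1.48 and −1.53.

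Most neuronal and glial systems did not pass the limits. No gene was called among 21 interneuron, 22 glutamate receptor, 16 GABA receptor and chloride transporter, 21 synaptic, 20 circadian clock, 17 chaperone, 10 insulin-like growth factor, 17 astrocyte, 21 microglia and complement, 29 interferon and MHC class I, 7 MHC class II, 29 endothelial and mural, and 10 housekeeping genes, whose list medians lay between −0.08 and 0.07 except for 0.30 in MHC class II. Against NBI 4W 3 interneuron genes were called higher (Calb2, Nos1 and Ndnf) and 1 synaptic gene lower (Dlg4), and none in the other lists of this group. All 22 genes of cholesterol synthesis, a pathway that myelin growth draws on, had mean differences below 0, from −0.34 (Sc5d, a sterol desaturase) to −0.03 (Stard4, a sterol carrier), with a median of −0.14 and none called. Single calls were seen in lists of larger size. They were Scn4b, a sodium channel subunit (1 of 31 ion channel genes), lower by −0.64 and −0.66, Nr4a2, a nuclear receptor induced by activity (1 of 28), by −0.74 and −0.72, Sema3d, a repulsive guidance cue (1 of 38), by −1.91 and −0.73 with 1 of 2 arrays at 10W above background, and Nid1, a basement membrane protein (1 of 27 collagen and matrix genes), by −0.65 and −0.72. Has3, a hyaluronan synthase, was the 1 higher gene of 13 in the perineuronal net list, by 0.96 and 0.90. Of 12 imprinted growth genes, Dlk1, a Notch-like ligand, was lower by −0.96 and −0.75 and Peg10 higher by 0.89 and 0.98. Against NBI 4W Nid1 was called lower (−0.79) and Has3 (0.92) and Peg10 (1.69) higher, Dlk1 was called higher (1.02), and Scn4b (0.00), Nr4a2 (−0.51) and Sema3d (0.08) were not called.

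Of the genes that the study measured by RT-PCR, Mov10l1, an RNA helicase of the germ line, is among the bounds above, and Xist and Ttr are described with their lists. Gdf3, a growth factor of the TGF-beta family, differed by 0.33 and 0.14 and Phactr2, a phosphatase and actin regulator, by −0.19 and 0.06. Kcne2, Wfdc2, Acod1, Cytip, Asb17, Msr1 and Il4 were not well above background on both arrays of either pool and were not compared.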

How the data were processed

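RNA of the right neocortex was measured on Agilent mouse 8 × 60K arrays, and the authors quantified the spots with Agilent Feature Extraction 11.0.1.1 (version per the submitters' processing notes), whose headers name the mm9 build. The deposited scanner tables hold spot intensities in arbitrary units, and the processed signal used here had its background subtracted by the authors' software. Dye normalization used 0 probes according to the tables. The deposited value table holds the labeled channel's intensities, not logged or scaled and within 0.5% of the processed signal, and served as an alternative. Of each array only the channel of its label was used.

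Control spots and 156 to 237 outlier spots per array were dropped, repeat spots of a probe averaged, intensities below 1 set to 1, and log2 values computed minus the 75th percentile of each array (1148 to 1532 units). Of 55681 probes, 26582 carried an accession named in the RefSeq table of GRCm38.p6, giving 20145 genes, 20144 with a value on all 4 arrays. A gene was represented by its brightest probe that was not saturated on any of the 4 arrays or, where it had none, by its brightest probe. The 171 genes saturated on all 4 arrays were not compared. Genes saturated on some of the 4 arrays, such as Glul, Pgk1 and Mt2, were compared. Named are the 15 genes in each direction with the largest mean difference among those well above background and not saturated on all 4 arrays, the 5 largest bounds, called list members and the genes of the study's RT-PCR, and others as marked. Some members of the lists are counted in them but not reported singly here. The members and lists were chosen with earlier results of these data known. The sex chromosome check list had 4 genes compared, none higher and 1 lower (Xist). The number of arrays limits the precision. Python 3.11.15, numpy 2.4.6, pandas 2.3.3, matplotlib 3.10.9 and, for the normexp correction, limma 3.58.1 in R 4.3.3 were used.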

Additional observations from a re-analysis of the deposited data

Results flagged for a closer look

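For 14 genes named here the control comparison and the operated comparison went opposite ways, each past 1.5-fold with both dyes, lower in 10W than in P35 and higher in ABI 4W than in NBI 4W. The gap between the 2 log2 differences (control minus operated) was −3.71 for Oxt, −3.37 for Avp, −2.52 for Lhx8 and −1.89 for Slc5a7 among the hypothalamic and basal forebrain genes. Among the striatal genes it was −2.50 for Ido1, −1.99 for Lrrc10b, −1.93 for Ecel1, −1.74 for Rgs9, −1.63 for Drd1, −1.38 for Pde10a and −1.28 for Gng7. It was −1.30 for the sodium channel gene Scn4b, and −1.90 for Steap1 and −1.85 for Clic6 of the choroid plexus list. With 1 pool in each place these gaps were not tested.

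The channel that carried no labeled RNA was well above background at 0.830% (P35) and 0.755% (10W) of the spots on the Cy3 arrays and at 1.14% and 0.821% on the Cy5 arrays. No group held enough samples to look for an outlying one.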

How the results depend on the processing

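No paired analysis was possible because each age is 1 pool and no test was made. The 891 higher and 118 lower genes became 438 and 447 with median scaling, 297 and 347 with quantile normalization, 298 and 55 with normexp, 1732 and 291 without the background filter, 3886 and 208 over probes, and 294 and 19 at 2-fold. With no scaling 186 were lower, with a lower limit of 0.75-fold 234, with all 4 arrays above background 530 were higher, and with a propagated error p under 0.01 in addition 554. With 1 dye left out the counts were 1158 to 1623 higher and 256 to 280 lower. The 1133 higher and 70 lower genes of ABI 4W against NBI 4W became, in the same order, 616 and 559, 521 and 274, 378 and 30, 2119 and 319, 4443 and 170, and 481 and 14, with 106 and 217 lower, 663 and 708 higher, and 1468 to 1910 higher and 201 to 532 lower with 1 dye left out. With ABI 1W in place of ABI 4W 134 were lower. Chosen after seeing the data, the genes above the dimmest 4021 gave 41 and 63 (25 and 74 after quantile normalization) for the controls and 128 and 32 (96 and 42) for the operated pools, NBI 4W in place of control P35 gave 1067 and 95, and ABI 1W in place of control 10W gave 995 and 252. Of the named genes that were called, AW011738 (0.049) and Lepr (0.090) turned in sign under the median over a gene's probes, and no other turned under any scaling, background correction, filter or probe choice tried. For Lepr the chosen probe differed by −0.85 on average and a second, dimmer probe by 1.03. The higher calls of Myrf, Tmem163, Foxm1 and Otp were lost with median scaling, quantile normalization, no scaling and normexp, whereas 9 to 16 myelin and 9 to 16 striatal genes were lower under each. The causes were not tested. Genes whose probe was not well above background in 1 pool (183 of the higher and 12 of the lower) have only a bound.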
